A study of Mus musculus with 20 samples.

Results

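The 42 genes described here encode enzymes and carriers of glycolysis, pyruvate dehydrogenase and the citrate cycle, together with the malate-aspartate shuttle that couples them. They were chosen by symbol, with earlier results of these data known, and all 42 were among the 15956 genes counted in left ventricular tissue from 20 mice. Of these 42, all entered the test and 40 had a mean normalized count over 50, the exceptions being Pgk1 at 23.7 and Pgam1 at 25.1. Normalized count here means the read count scaled to the library size by trimmed mean of M values, averaged over 20 libraries where no group is named. The study asked how reduced dietary protein, with or without a high-fat diet, changed the hearts of aging mice.

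Male mice received a normal protein diet (NP), a low protein diet (LP), a high-fat diet (HF) or a high-fat diet with low protein (HF + LP), with 5 mice per diet. The diets were formulated to be isocaloric, with casein reduced and mostly replaced by starch in the low protein diets, and lard taking the place of starch in the high-fat diets. All mice were 18 months old by the labels, while the study's methods describe a younger group, and neither names an engineered allele. By the labels, NP mice weighed 43.0 ± 7.82 g (SD, n = 5), LP mice 32.6 ± 2.69 g, HF mice 58.9 ± 1.76 g and HF + LP mice 48.6 ± 5.93 g. The labels give each mouse its own animal number within a diet, and 1 LP library is marked as a second sample of its animal.

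The heart draws most of its energy from fatty acids and a smaller part from glucose and lactate. Glucose is trapped by hexokinase and committed to breakdown by phosphofructokinase, whose activity follows fructose 2,6-bisphosphate, the signal made by the PFKFB enzymes, and fructose bisphosphatase runs the opposing step. Pyruvate then enters mitochondria through the MPC carrier, where pyruvate dehydrogenase, switched off by PDK kinases and on by PDP phosphatases, turns it into acetyl-CoA. The citrate cycle oxidizes acetyl-CoA from both fuels, and the malate-aspartate shuttle carries reducing equivalents from the cytosol into mitochondria.

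Reads came from the 3′ ends of polyadenylated transcripts, so a gene's count does not grow with transcript length and levels of different genes are given without a length correction. Members with read-length stretches at the 3′ end that recur in other genes are named with their shares below. Library totals ran from 12559607 to 23331907 counts, of which mitochondrially encoded genes took between 35.4% and 47.2%. Cardiomyocyte markers were abundant in all 20 libraries, with summed normalized counts of 10 genes between 647133 and 1113350. Of 8 counted skeletal muscle markers, the 5 that entered the test summed to between 402 and 2976. The summed count of 5 atrial markers ran from 973 to 259457, and that of 6 adipocyte markers, including the brown fat gene Ucp1, from 11.4 to 11027. Ucp1 exceeded 100 normalized counts in LP mice 13 and 20, HF mouse 3 and HF + LP mouse 3. The atrial light chain Myl7 exceeded 13000 in LP mouse 13, HF mice 1 and 3 and HF + LP mouse 3. Values without the 4 libraries with over 100 Ucp1 counts are given beside several results. The summed adipocyte count of HF + LP mice, at most 374 with a median of 30.2, stayed below the NP highest of 789. Adipoq, Plin1 and Cidec of HF + LP mouse 3 were 46.6, 47.5 and 24.7. The other HF + LP mice held at most 11.3, 4.17 and 2.14 of these genes. In bulk tissue, fewer cells of a type and less RNA per cell cannot be told apart.

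As a group, the 42 genes took a small and similar share of the counts from nuclear genes. NP mice gave them 2.85 ± 0.146% (SD, n = 5), LP mice 2.67 ± 0.192%, HF mice 2.64 ± 0.150% and HF + LP mice 2.66 ± 0.228%, so the groups differed by about the spread within them. Mean normalized counts reached 25338 for Aldoa, the muscle aldolase, with a median of 4410 over the 42 genes. 33 genes exceeded 1000 and 8 exceeded 10000. Aldoa, Mdh1, Idh2, Mdh2 and Ogdh together held 37.8% of the summed level. Between mice of 1 diet, the median coefficient of variation was 10.4% in NP, 12.0% in HF, 15.8% in HF + LP and 18.6% in LP.

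**Figure D1:**
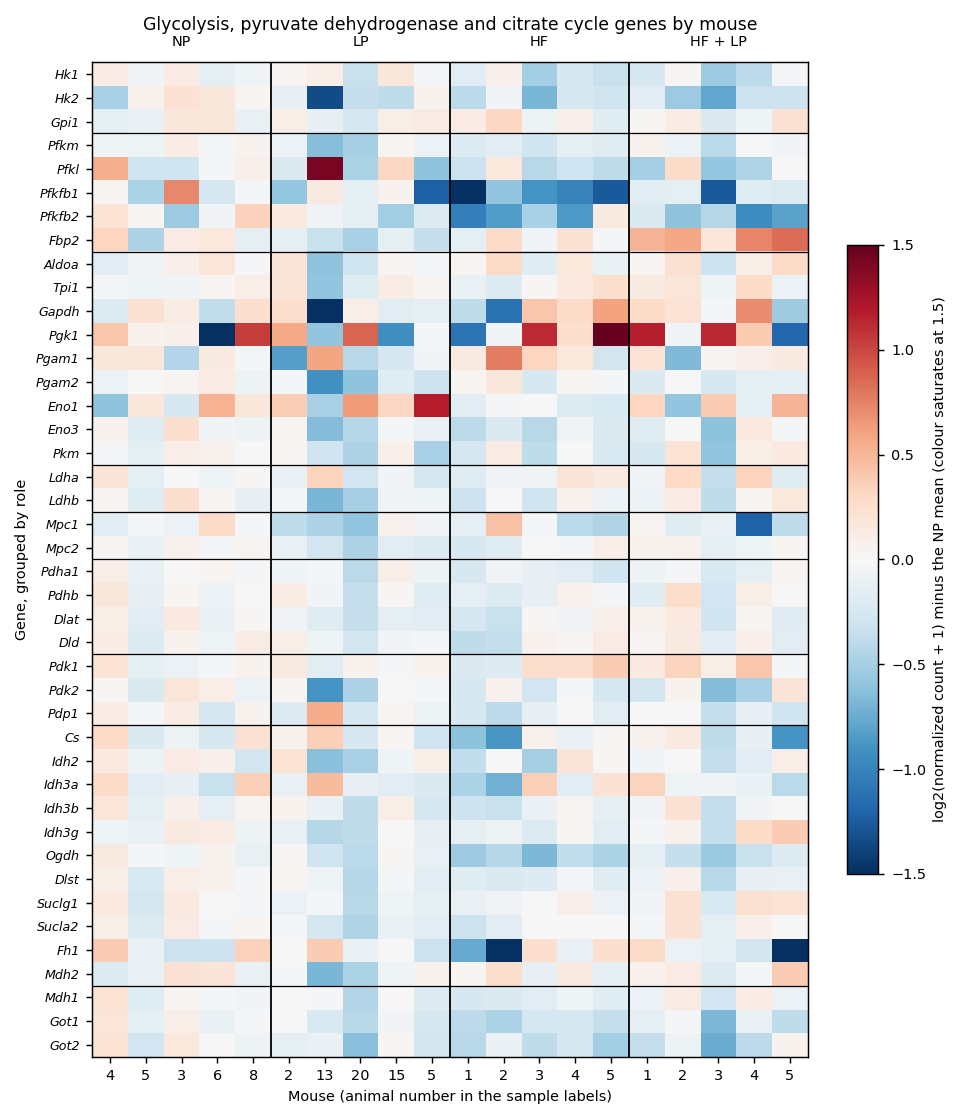
Each row is 1 gene, grouped by role, and each column 1 mouse, numbered as in the labels. Colour shows log2(normalized count + 1) minus the NP mean, with red above and blue below. Fbp2 is red across HF + LP, Ogdh and Pfkfb1 are blue across HF, and LP mouse 13, LP mouse 20 and HF + LP mouse 3 are pale to dark blue over many rows.

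In the plot by mouse, single mice were lower than the NP mean over many of the genes. The median deviation of the 40 genes with a mean over 50 from their NP means was 0.01 ± 0.09 (log2, SD, n = 5) for NP mice, -0.15 ± 0.16 for LP mice, -0.14 ± 0.08 for HF mice and -0.08 ± 0.15 for HF + LP mice. The lowest single values were -0.39 in LP and -0.33 in HF + LP, and the ranges of the 4 diets overlapped. LP mouse 20 held the first of these and HF + LP mouse 3 the second, and both are among the libraries with over 100 Ucp1 counts, at 952 and 188. The part of Ucp1 in the deviations was not tested.

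The high-fat diet was compared with the normal diet first. Ogdh, which encodes the first subunit of the 2-oxoglutarate dehydrogenase complex of the citrate cycle, and Pfkfb1, which encodes a bifunctional enzyme that makes and degrades fructose 2,6-bisphosphate, were lower in HF than in NP at an adjusted p under 0.05. Neither passed 0.01, the threshold for a call here, which also needed a mean over 50. Among all 13991 tested genes, 0.264% were called at 0.01 and 1.12% at 0.05, with 0.715% lower at 0.05, and the corresponding counts over the 42 genes were 0, 2 and 2. DESeq2 called both genes at 0.01.

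Ogdh, on chromosome 11 from 6291633 to 6356642 (GRCm38), was measured at 17715, 15896, 15374, 16746 and 14837 normalized counts in the NP mice. In the HF mice it was measured at 11037, 11954, 10050, 12407 and 11570. Every HF mouse lay below every NP mouse. The fitted log2 fold change of Ogdh was -0.50 (SE 0.10, edgeR quasi-likelihood test with Benjamini-Hochberg adjusted p = 0.0196), from a mean of 16114 ± 1139 to 11404 ± 909 (SD, n = 5). The adjusted p stayed under 0.05 in 26 of 30 alternative analyses. It was 0.00923 without the 4 libraries with over 100 Ucp1 counts. With single mice left out it passed 0.05 except at 0.0503 without NP mouse 6, 0.0509 without HF mouse 3 and 0.0543 without HF mouse 5.

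Pfkfb1, on chromosome X from 150588229 to 150643878, is a low-abundance gene in these hearts, with counts of 251, 174, 403, 204 and 237 in NP. The HF mice held 78.8, 161, 130, 121 and 101, again with no overlap. The log2 fold change of Pfkfb1 was -1.10 (SE 0.27, edgeR adjusted p = 0.0477). It stayed under 0.05 in only 10 of 30 alternatives, and without NP mouse 3 the change was -0.87 with an adjusted p of 0.152.

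Pfkfb2, known as the heart isoenzyme, had HF counts of 63.6, 72.5, 92.6, 71.3 and 143 and an NP range of 89.1 to 166. Its log2 fold change in HF minus NP was -0.58 (SE 0.21, edgeR adjusted p = 0.221), so it did not pass. Got1, the cytosolic aspartate aminotransferase of the malate-aspartate shuttle, did not overlap between diets, with 8365 to 9722 in HF and 10444 to 13152 in NP. Its log2 fold change was -0.35 (SE 0.12, edgeR adjusted p = 0.153), and -0.37 without the 4 libraries with over 100 Ucp1 counts (edgeR adjusted p = 0.0430). Got2, the mitochondrial partner, had a change of -0.33 (SE 0.15).

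**Figure D2:**
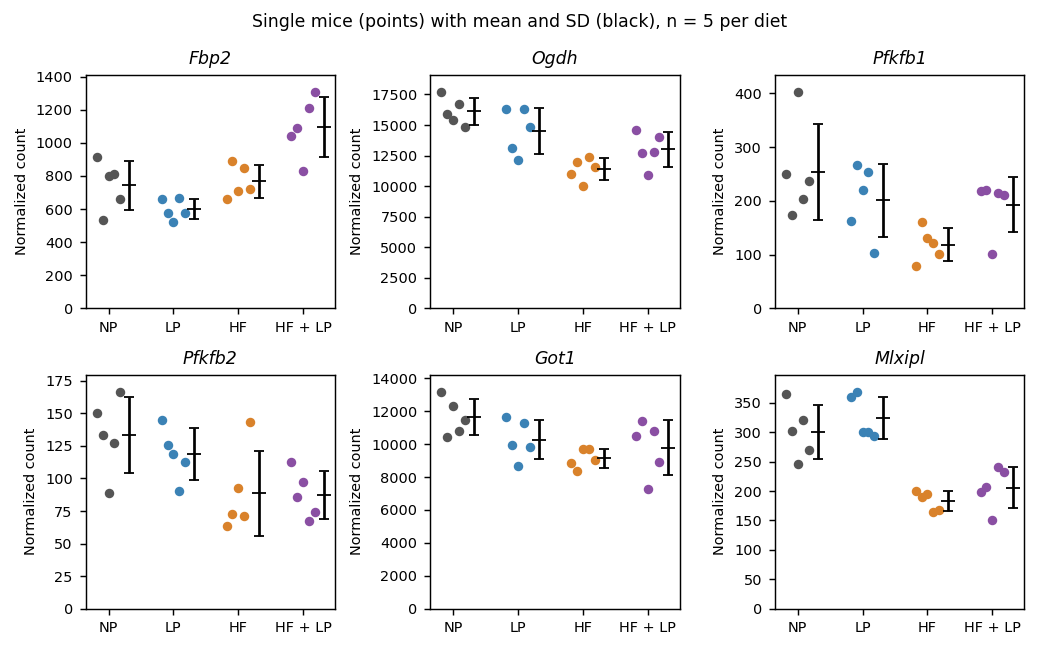
Normalized counts of 6 genes by diet, with 1 point per mouse and the mean with its SD in black (n = 5). Every HF mouse lies below every NP mouse for Ogdh, Pfkfb1 and Got1, and every HF + LP mouse lies above every LP mouse for Fbp2.

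Over the remaining roles, the HF minus NP differences were small. 32 of the 42 genes had a log2 fold change below 0, with a median of -0.13, and 50.2% of all tested genes lay below 0 with a median of -0.00. The median of the 42 ran from -0.17 to -0.08 over 30 alternatives, the latter without HF + LP mouse 3. Unadjusted p was under 0.05 for 5 genes, all lower (11.9%), and for 13.1% of all tested genes, 7.91% as lower. Groups did not overlap for 4 of the 42, Pfkm, Pfkfb1, Ogdh and Got1 (9.52%), and for 5.67% of all genes. In the citrate cycle, 10 of 11 genes had values below 0 and Mdh2 was at 0.03. All 4 subunit genes of pyruvate dehydrogenase had values between -0.17 and -0.09, all smaller than 2 standard errors. In lower glycolysis, 5 of 9 were above 0 with a median of 0.03. Marker genes of cell types moved in this comparison too. All 10 cardiomyocyte markers lay below 0, with a median of -0.24 and an unadjusted p under 0.05 for 4, and all 9 macrophage markers lay above 0, with a median of 0.50 and an unadjusted p under 0.05 for 6. Their part in the values of the 42 genes was not tested.

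The comparison of HF + LP with LP asks what the high-fat diet changed on low protein. Fbp2, which encodes the muscle fructose-1,6-bisphosphatase, rose, and it was the only one of the 42 genes that edgeR called in any comparison. 0.100% of all tested genes were called, and 0.322% passed an adjusted p of 0.05, 0.122% as higher, where Fbp2 again was the only one of the 42.

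Fbp2 lies on chromosome 13 from 62836877 to 62858422. It was measured at 1044, 1092, 829, 1211 and 1308 in HF + LP and at 663, 579, 520, 664 and 575 in LP. Every HF + LP mouse lay above every LP mouse, a separation seen for 1 of the 42 genes and for 1.87% of all genes. The log2 fold change was 0.87 (SE 0.14, edgeR adjusted p = 0.00726), a 1.83-fold difference. In NP the values were 914, 531, 799, 814 and 660, and in HF they were 661, 892, 709, 850 and 723, so NP and HF overlapped each other. DESeq2 called the gene as well, at an adjusted p of 3.66e-06.

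The call of Fbp2 was close to its threshold. Its log2 fold change was between 0.80 and 0.97 over 30 alternatives, of which 28 kept an adjusted p under 0.05 but only 9 kept it under 0.01. Without the 4 libraries with over 100 Ucp1 counts the change was 0.86 with an adjusted p of 0.0388 (edgeR), and without the 5 libraries high in Ucp1 or Myl7 the adjusted p was 0.0488. With those 2 diets fitted alone it was 0.103, and with the mouse number as a replicate block, although the numbers do not pair mice across diets, it was 0.532. Leaving out a single mouse ended the call for 16 of 20 mice, with adjusted p between 0.0101 and 0.0338. These were all LP mice, HF + LP mice 1, 2, 4 and 5, HF mice 1, 3, 4 and 5 and NP mice 3, 6 and 8.

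Next in HF + LP against LP came Mpc2 and Idh3g, neither of which passed. Mpc2, a subunit of the mitochondrial pyruvate carrier, had a log2 fold change of 0.23 (SE 0.09, edgeR adjusted p = 0.205). Idh3g, a regulatory subunit of the NAD-dependent isocitrate dehydrogenase, had 0.29 (SE 0.12, edgeR adjusted p = 0.238), and its values of 3583 to 5968 in HF + LP overlapped the 3418 to 4560 of LP. 27 of the 42 genes lay above 0 with a median of 0.07 and 54.2% of all genes lay below 0, and the median moved between -0.01 and 0.14 over the alternatives. It was -0.01 without LP mouse 20, 0.01 without HF + LP mouse 2, 0.14 without HF + LP mouse 3 and 0.03 without the 4 libraries with over 100 Ucp1 counts. All 6 adipocyte markers and all 5 atrial markers lay below 0 in this comparison, with medians of -4.73 and -1.64. Their part in the values of the 42 genes was not tested. Unadjusted p was under 0.05 for 5 genes, all higher (11.9%), and for 15.9% of all tested genes, 6.26% as higher. The 5 were Fbp2, Mpc2, Idh3g and the succinyl-CoA ligase subunits Suclg1 (0.23, SE 0.11) and Sucla2 (0.23, SE 0.10).

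Low protein against normal protein without added fat gave no called gene among the 42 or among all genes (0% at an adjusted p of 0.01 and 0% at 0.05, edgeR). DESeq2 called 4 genes, none of the 42. Unadjusted p was under 0.05 for 3 of the 42, all lower (7.14%), and for 7.23% of all genes, 2.21% as lower. These 3 were Pgam2, Mpc2 and Fbp2. Pgam2, the muscle phosphoglycerate mutase, was measured at 7450, 4029, 4980, 6659 and 6114 in LP and 7124 to 8240 in NP, a log2 fold change of -0.38 (SE 0.13, edgeR adjusted p = 0.530). LP mice 13 and 20, which carry the high adipocyte markers, held the 2 lowest values, and without the 4 libraries with over 100 Ucp1 counts the change of Pgam2 was -0.17. Mpc2 had -0.24 (SE 0.09, edgeR adjusted p = 0.592), or -0.16 without those libraries, with every LP mouse, at 6642 to 8456, below every NP mouse, at 8498 to 9576. Non-overlap of this kind held for 1 of the 42 and for 0.786% of all genes.

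The direction in LP minus NP was mostly down without any single gene passing. 37 of the 42 genes lay below 0, with a median of -0.15, against 45.4% of all genes with a median of 0.02. Over 30 alternatives the median of the 42 ran from -0.20 to -0.08, the latter without the 4 libraries with over 100 Ucp1 counts. Without LP mouse 20 alone it was -0.09. All 10 cardiomyocyte markers also lay below 0 in LP minus NP, with a median of -0.21, and all 6 adipocyte markers lay above 0. Their part in the direction of the 42 genes was not tested. All 11 citrate cycle genes, all 4 pyruvate dehydrogenase subunits and 8 of 9 lower glycolysis genes were below 0. HF minus NP shares its control mice with this comparison.

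Adding low protein to the high-fat diet (HF + LP minus HF) gave no called gene either, among the 42 or among all genes (0% at both thresholds, edgeR). DESeq2 called 16 genes, none of the 42. Unadjusted p was under 0.05 for 2 of the 42 (4.76%), both higher, and for 4.84% of all genes, 2.41% as higher. The groups overlapped for all 42, and did not overlap for 1.18% of all genes. 32 of the 42 lay above 0 with a median of 0.06, and 46.3% of all genes lay below 0. The median was 0.02 without HF mouse 1, 0.03 without HF + LP mouse 2, 0.09 without HF mouse 4, 0.11 without HF mouse 5 and 0.12 without the 4 libraries with over 100 Ucp1 counts. Of the cell type markers, 8 of 10 for cardiomyocytes lay above 0, with a median of 0.17, and all 9 for macrophages lay below 0, with a median of -0.36. Their part in these values was not tested. Fbp2 had a log2 fold change of 0.52 (SE 0.14, edgeR adjusted p = 0.342) and Pfkfb1 had 0.70 (SE 0.27, edgeR adjusted p = 0.762). Ogdh followed with 0.19 (SE 0.10, edgeR adjusted p = 1.00). Fbp2 values of HF + LP mouse 3, at 829, lay inside the HF range of 661 to 892. For Pfkfb1, 4 HF + LP mice held 211 to 220 and mouse 3, a library with 188 Ucp1 and 13176 Myl7 counts, held 101, inside the HF range of 78.8 to 161.

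**Figure D3:**
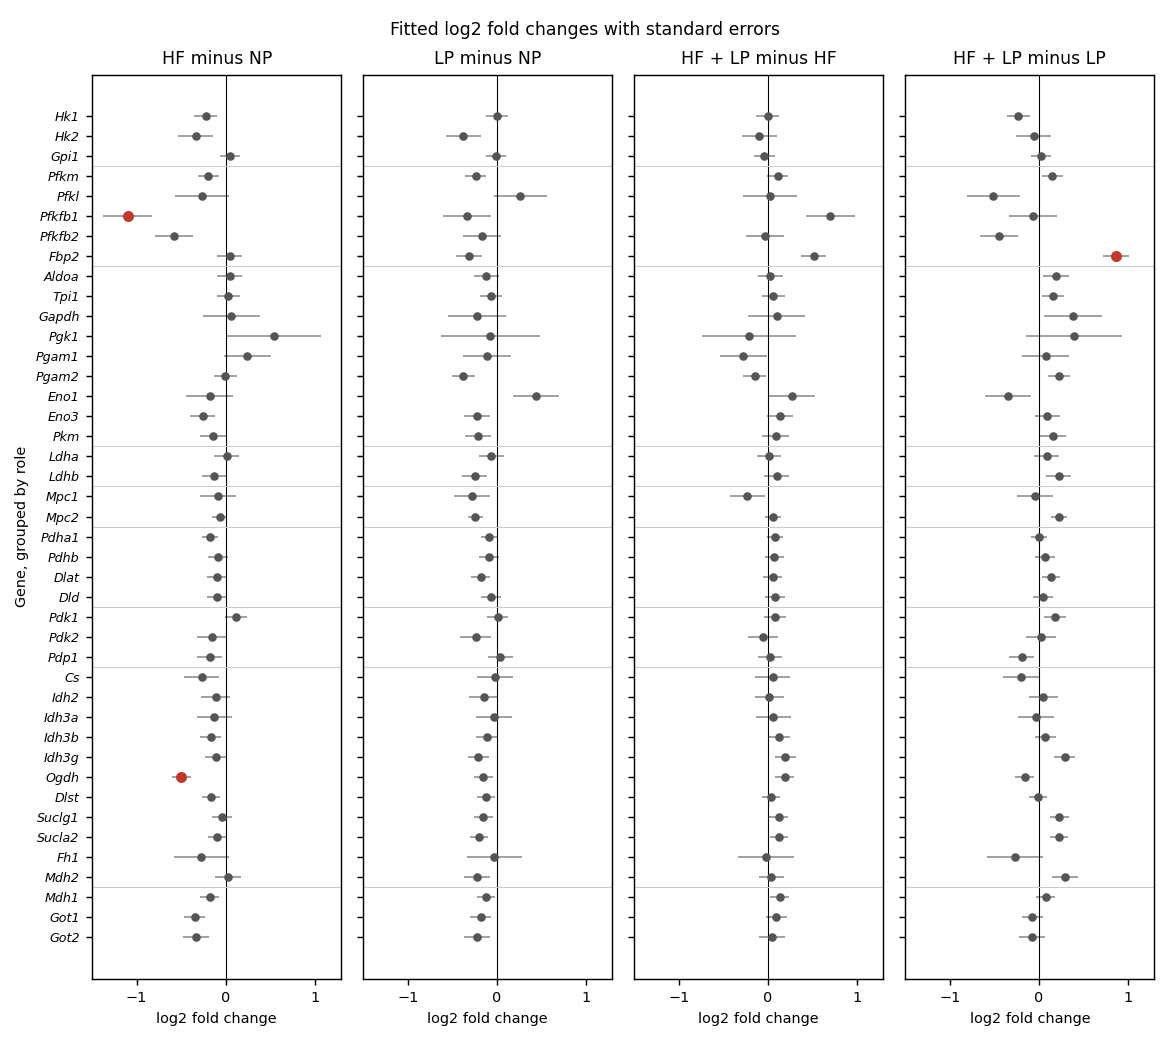
Fitted log2 fold change (point) with its standard error (bar) for the 42 genes in 4 comparisons, ordered by role. Red points mark an adjusted p under 0.05 with a mean count over 50, which are Pfkfb1 and Ogdh in HF minus NP and Fbp2 in HF + LP minus LP.

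The fit across the 4 diets also gave the interaction of fat and protein content, that is, how far the effect of fat on low protein differed from its effect on normal protein. No gene was called in it (0%, edgeR), and DESeq2 called 1 gene, none of the 42. Unadjusted p was under 0.05 for 7 of the 42 (16.7%), all positive, and for 7.17% of all genes, 2.86% as positive. 35 of the 42 values were above 0, with a median of 0.18, and 51.0% of all genes lay below 0, with a median of -0.01. The largest were Pfkfb1 at 1.04 (SE 0.38, edgeR adjusted p = 0.668, and 1.46 without the 4 libraries with over 100 Ucp1 counts), Fbp2 at 0.83 (SE 0.20, edgeR adjusted p = 0.614) and Idh3g at 0.40 (SE 0.17, edgeR adjusted p = 0.683). The difference between the fat effects on Fbp2 therefore did not pass the test.

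Averaged over both protein contents, fat was tested with 10 mice on each side. 1.00% of all genes were called at 0.01 and 3.59% passed 0.05, and the counts over the 42 genes were 0 and 2. Fbp2 was higher on fat by 0.46 (SE 0.10, edgeR adjusted p = 0.0130) and Ogdh was lower by the fitted value of -0.33 (SE 0.07, edgeR adjusted p = 0.0140). Both kept an adjusted p under 0.05 in 28 of 29 alternatives, and without the 4 libraries with over 100 Ucp1 counts that of Ogdh was 0.00586 (edgeR). 24 of the 42 genes lay below 0, and 53.1% of all genes. An unadjusted p under 0.05 was found for 6 of the 42 (14.3%) and for 20.8% of all genes. Pfkfb2 followed at -0.51 (SE 0.15, edgeR adjusted p = 0.0568).

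Averaged over both fat contents, low protein gave no call over all genes (0%, edgeR), and DESeq2 called 1 gene, none of the 42. An unadjusted p under 0.05 was found for 1 of the 42, as lower (2.38%), and for 5.47% of all genes, 2.08% as lower. 30 of the 42 lay below 0, and 43.8% of all genes. Pgam2 stood at -0.26 (edgeR adjusted p = 0.750), Eno1 at 0.36 (edgeR adjusted p = 0.935) and Mpc1 at -0.25 (edgeR adjusted p = 1.00).

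By role, the first steps of glycolysis were measured as follows. Hk2, the insulin-responsive hexokinase of muscle, had mean normalized counts of 4950 ± 856 for NP, 3815 ± 1179 for LP, 3920 ± 625 for HF and 3675 ± 592 for HF + LP (SD, n = 5). Hk1, the housekeeping form, had 1793 ± 140, 1795 ± 227, 1535 ± 235 and 1533 ± 248 in the same order. Pfkm, the muscle phosphofructokinase, had 4786 ± 261, 4062 ± 787, 4176 ± 172 and 4510 ± 541. The HF mice did not overlap the NP mice for Pfkm, yet the fitted change was -0.20 (SE 0.12), which did not pass.

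Among regulators of phosphofructokinase, Pfkfb1 averaged 254 ± 88.4 normalized counts for NP, 201 ± 67.8 for LP, 118 ± 30.8 for HF and 193 ± 51.7 for HF + LP (SD, n = 5). Pfkfb2 averaged 133 ± 29.0, 119 ± 19.7, 88.7 ± 32.4 and 87.3 ± 18.1. The high-fat groups had the 2 lowest means of Pfkfb2, and their ranges overlapped those of NP and LP. Fbp2 averaged 744 ± 149, 600 ± 62.2, 767 ± 98.8 and 1097 ± 182.

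At the end of glycolysis, Pkm, the muscle-type pyruvate kinase gene, had 9745 ± 614 normalized counts for NP, 8407 ± 1564 for LP, 8846 ± 1247 for HF and 9409 ± 2006 for HF + LP (SD, n = 5). Ldha, the lactate dehydrogenase of glycolytic tissue, had 4348 ± 388, 4173 ± 766, 4386 ± 461 and 4435 ± 918, a spread larger than any difference. Ldhb, the heart form, had 10299 ± 1197, 8676 ± 1756, 9441 ± 1097 and 10121 ± 1439. None of these passed in any comparison. Of the last 500 transcript bases of Gapdh, 84.0% of read-length stretches also occur in 77 other annotated genes. For Eno1 this share was 62.0%, for Mpc1 22.1% and for Ldhb 17.1%, so the counts of these 4 genes are uncertain. Smaller shares were found for Pdhb, at 3.52%, and Pgk1, at 1.88%, whose counts carry the same doubt to that extent. For Fbp2, Ogdh and Got1 it was 0%.

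At the entry of pyruvate into mitochondria, Mpc1 had 617 ± 78.2 normalized counts for NP, 511 ± 101 for LP, 581 ± 155 for HF and 495 ± 141 for HF + LP (SD, n = 5). Mpc2 had 9144 ± 416, 7751 ± 710, 8731 ± 827 and 9083 ± 518. Pdha1, the catalytic subunit of pyruvate dehydrogenase that the kinases phosphorylate, had 8529 ± 475, 8014 ± 954, 7558 ± 493 and 8017 ± 576. Its kinases did not part the diets either. Pdk1 had 1106 ± 105, 1115 ± 83.9, 1198 ± 225 and 1267 ± 158, and Pdk2, the more abundant of the pair, had 4100 ± 444, 3483 ± 861, 3686 ± 412 and 3551 ± 869. The phosphatase gene Pdp1 had 393 ± 38.8, 403 ± 101, 346 ± 35.1 and 354 ± 40.6.

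In the citrate cycle, Cs, citrate synthase, had 8552 ± 1486 normalized counts for NP, 8455 ± 1586 for LP, 7088 ± 1898 for HF and 7369 ± 1887 for HF + LP (SD, n = 5). Its log2 fold change in HF minus NP was -0.27 (SE 0.20), within the spread. Idh2, the mitochondrial NADP-dependent isocitrate dehydrogenase, had 21911 ± 2562, 19793 ± 4789, 20257 ± 3944 and 20507 ± 2412. Idh3a, the catalytic subunit of the NAD-dependent enzyme, had 4975 ± 1054, 4868 ± 1078, 4560 ± 1396 and 4765 ± 894. Ogdh was the exception to this closeness, at 16114 ± 1139, 14537 ± 1894, 11404 ± 909 and 13018 ± 1430. Dlst, which encodes the second subunit of the same complex, had a change of -0.16 (SE 0.10) in HF minus NP and Dld, the subunit shared with pyruvate dehydrogenase, had -0.10 (SE 0.11). Got1 had 11639 ± 1105, 10276 ± 1191, 9136 ± 577 and 9767 ± 1671.

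Several steps have a muscle and a general isoenzyme, whose ratio within each mouse does not depend on library size. No test was run on these ratios. Eno1 made up 0.671% of Eno1 plus Eno3 in NP and Pgam1 0.323% of Pgam1 plus Pgam2, and the Eno1 share is uncertain because most of its 3′ end is shared with other genes. The same limit holds for Ldhb, to a smaller extent. Ldha made up 29.7% of the lactate dehydrogenase pair for NP, 32.5% for LP, 31.7% for HF and 30.5% for HF + LP. Hk1 made up 26.6%, 32.0%, 28.1% and 29.4% of the hexokinase pair. Pdk1 made up 21.2% of Pdk1 plus Pdk2 in NP and 26.3% in HF + LP. Ranges of the log2 ratio overlapped between diets for all 8 pairs in all 4 comparisons. LP mouse 13 held the highest Hk1/Hk2, Pfkl/Pfkm, Pgam1/Pgam2, Ldha/Ldhb and Mdh1/Mdh2 ratios of the 20 mice, and its Ucp1 count was 6037 and its Myl7 count 33675. The part of those markers in the ratios was not tested.

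**Figure D4:**
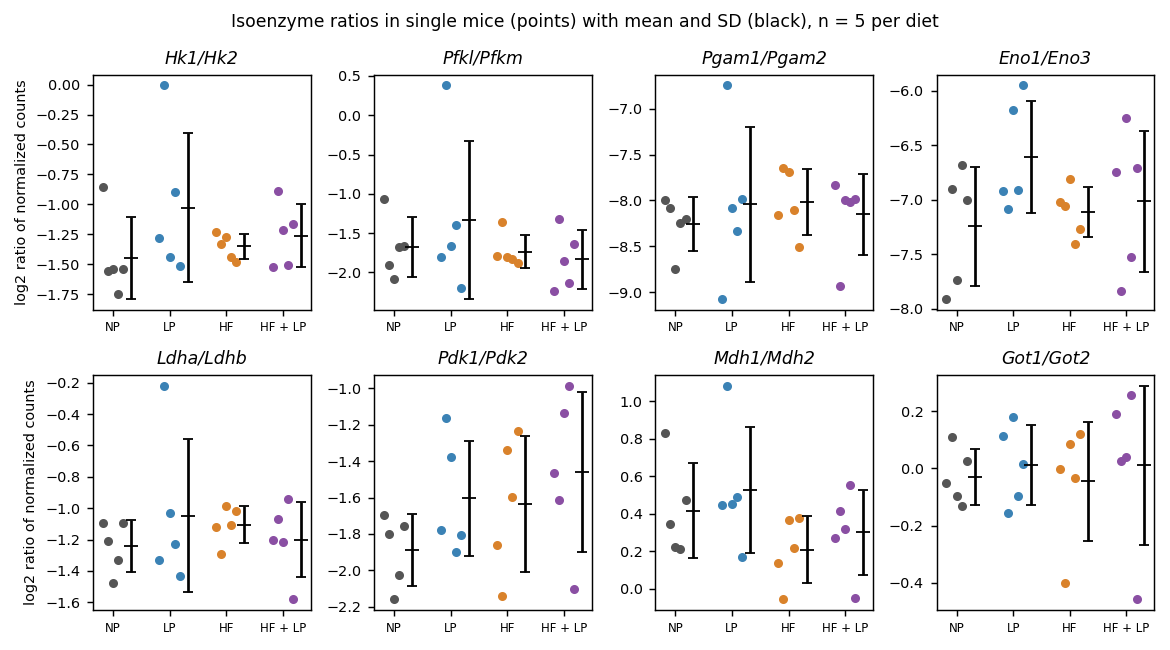
log2 ratio of the normalized counts of 2 isoenzymes in each mouse (points), with the mean and SD per diet in black (n = 5). The diets overlap for every pair, and 1 LP mouse stands above the others for Hk1/Hk2, Pfkl/Pfkm, Pgam1/Pgam2, Ldha/Ldhb and Mdh1/Mdh2.

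Other genes of the same pathways were read from a list of 91, of which 86 were counted and 83 tested. In HF minus NP, 1 was called (1.20%) and 2 passed 0.05 (2.41%), both lower, beside 0.264% and 1.12% of all genes. Mlxipl, which encodes the glucose-responsive transcription factor ChREBP, was measured at 365, 302, 247, 320 and 269 in NP and 201, 190, 195, 164 and 168 in HF. Every HF mouse lay below every NP mouse, with a log2 fold change of -0.71 (SE 0.13, edgeR adjusted p = 0.00857). The call was lost with relative log expression size factors (edgeR adjusted p = 0.0116) and with the library number as covariate (0.0101). On low protein it went from 359, 368, 300, 300 and 293 in LP to 198, 206, 151, 241 and 232 in HF + LP, also without overlap, a change of -0.66 (SE 0.13, edgeR adjusted p = 0.0233). Without the 4 libraries with over 100 Ucp1 counts this second change was -0.55 with an adjusted p of 0.201 (edgeR), without LP mouse 13 alone the adjusted p was 0.0637, and with the library number as covariate it was 0.0546. Averaged over protein contents, Mlxipl was lower on fat at a fitted -0.69 (SE 0.09, edgeR adjusted p = 0.000222).

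For the mean effect of fat, 4 of the 83 passed 0.05 (4.82%), all lower, beside 3.59% of all genes. Beside Mlxipl these included Gys1, muscle glycogen synthase, at -0.39 (SE 0.10, edgeR adjusted p = 0.0268) and Mlxip, the paralog of Mlxipl, at -0.43 (SE 0.12, edgeR adjusted p = 0.0484). Without the 4 libraries with over 100 Ucp1 counts Gys1 stood at -0.37 (edgeR adjusted p = 0.0501) and Mlxip at -0.39 (edgeR adjusted p = 0.0445). Without the 5 libraries high in Ucp1 or Myl7 Mlxip stood at -0.37 (edgeR adjusted p = 0.0687).

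In the other comparisons these pathway genes gave no further pass at 0.05 except Mlxipl. Me3, mitochondrial malic enzyme, stood at -0.38 and Slc25a1, the citrate carrier, at 1.90 in LP minus NP (edgeR adjusted p = 0.387 for both). Slc25a1 reached 860 in an LP library and at most 93.1 in NP, and without LP mouse 13 its change was 0.76. In HF + LP minus LP Slc25a1 stood at -2.16 (edgeR adjusted p = 0.0745). Without the 4 libraries with over 100 Ucp1 counts these 2 values of Slc25a1 were 0.28 and -0.68. In HF + LP minus HF the smallest p value belonged to the pyruvate dehydrogenase phosphatase Pdp2 at 0.45 (edgeR adjusted p = 0.798). Pck1 and Pdp2 had the smallest p values in the interaction (edgeR adjusted p = 0.614 for both). The interaction of Pck1 was -7.03, and without those 4 libraries it was 1.63, the opposite sign. Acly, which makes cytosolic acetyl-CoA from citrate, stood at 0.74 in the mean effect of low protein (edgeR adjusted p = 0.794) and at 0.10 without the same libraries. It was measured at 1819 in LP mouse 13 and 599 in LP mouse 20, and at 233 to 289 in the other LP mice.

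Pdk4, the kinase isoform induced by fasting and fatty acids, varied widely within diets. It was measured at 473, 65.6, 41.8, 68.0 and 509 in NP, at 257, 562, 506, 63.0 and 103 in LP, at 112, 84.3, 2554, 306 and 2274 in HF and at 910, 280, 804, 624 and 176 in HF + LP. The coefficient of variation was 103% in NP and 116% in HF. All 4 groups overlapped. The fitted log2 fold change of Pdk4 was 2.21 in HF minus NP (SE 0.91, edgeR adjusted p = 0.283) and 1.55 for the mean effect of fat (SE 0.63, edgeR adjusted p = 0.163), so neither passed. HF mouse 3, which held the highest value, is a library with high Ucp1, and without the 4 such libraries the HF minus NP change of Pdk4 had an adjusted p of 0.426 (edgeR).

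The neighbouring fuel pathways were set beside the 42 genes. The list medians of the log2 fold change in HF minus NP were -0.13 for the 42 genes, 0.04 for 20 fatty acid oxidation genes and 0.01 for 75 nuclear genes of the respiratory chain. In LP minus NP they were -0.15, -0.22 and -0.15. In HF + LP minus LP they were 0.07, 0.31 and 0.27, and over all tested genes -0.03. All 20 fatty acid oxidation genes and 70 of 75 respiratory chain genes lay above 0 there, against 27 of the 42. These medians are descriptions, and the lists were not tested against each other.

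**Figure D5:**
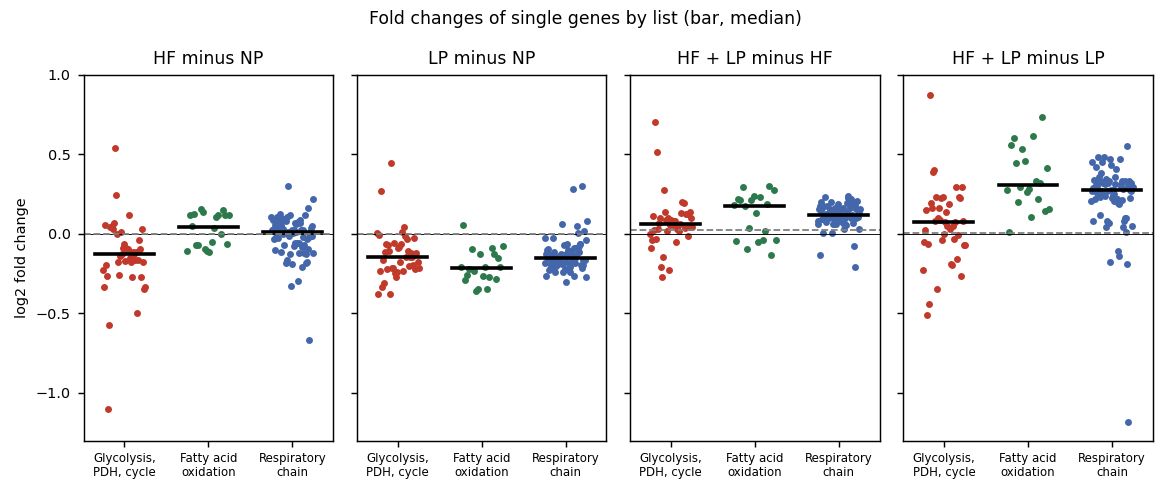
log2 fold change of each gene (points) in 3 lists and 4 comparisons, with the list median as a black bar and the median of all genes with a mean over 50 as a dashed line. In HF + LP minus LP, the bar lies at 0.07 for the 42 genes, 0.31 for fatty acid oxidation and 0.27 for the respiratory chain.

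Since Fbp2 carries the called difference, the sequence before the gene is shown. It runs over chr13:62858423-62858650 on the minus strand (GRCm38.p6, from the RefSeq window), up to the base before the gene's start in the GENCODE annotation, which lies upstream of the RefSeq start, in lower case with an E-box in capitals.

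Fbp2: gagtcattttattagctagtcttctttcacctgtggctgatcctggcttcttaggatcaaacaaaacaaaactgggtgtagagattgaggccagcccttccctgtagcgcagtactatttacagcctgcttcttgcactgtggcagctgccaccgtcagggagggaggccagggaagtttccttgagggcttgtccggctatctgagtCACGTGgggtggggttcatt

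The E-box, the letters CACGTG on both strands, is a palindrome recognised by basic helix-loop-helix factors, the ChREBP and MYC families among them. It was searched in windows of 300 bases, 250 before and 50 after each RefSeq start, with 40 of the 42 genes having a window. It was found for 6 of the 40 genes (15.0%) and for 8.09% of all 27025 genes with a window, where a match in any window of a gene counted. Genes with more windows have more places to match, and by window the shares were 12.7% and 7.15%. These 6 genes were Fbp2, Ldha, Ogdh, Pdk2, Pfkfb2 and Pfkm, and Ldha and Ogdh each had 2 such positions. Their surroundings are shown because they include 3 genes of the phosphofructokinase step and both genes that passed 0.05 for the mean effect of fat. Both positions of Ogdh lie inside the gene, before later RefSeq starts, and the 250 bases before its most upstream start hold no E-box.

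Fbp2: ctatctgagtCACGTGgggtggggtt
Ldha, first: tgtcgcagcaCACGTGgagccactct
Ldha, second: gcccagcctaCACGTGggttcccgca
Ogdh, first: cgcggcgtgtCACGTGgaccggtcgc
Ogdh, second: caagaatcctCACGTGgataccatgt
Pdk2: cgaggagagcCACGTGtcgaagcgca
Pfkfb2: ccaagcgcccCACGTGactcgcccca
Pfkm: ttaagtatgcCACGTGaagtaagtaa

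Of these 6 genes, Fbp2 was higher and Ogdh lower for the mean effect of fat, and the other 4 did not pass. A match gives letters in a window and says nothing of binding. The GC box GGGCGG, on either strand, was found for 25 of the 40 genes (62.5%) and for 38.2% of all genes, and by window for 49.2% and 35.7%. The TATA box letters TATAAA were found for 2 of the 40 (5.00%) and for 15.7% of all genes. The estrogen-related receptor letters TCAAGGTCA were in the windows of 0 of the 40 genes and of 0.466% of all genes.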

How the data were processed

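Total RNA of left ventricle was made into QuantSeq 3′ libraries and sequenced on a NextSeq 500. Alignment by the authors used BlueBee software. The deposited values are raw counts per gene for 20 libraries, and the submitters' processing notes name GRCm38 and DESeq2 1.22.2. Genes were named through GENCODE annotation of GRCm38. The 42 members and all gene lists were chosen with earlier results of these data known.

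Counts were filtered by expression per group, scaled by trimmed mean of M values and fitted over 4 diets with edgeR 4.0.16 (quasi-likelihood test, R 4.3.3), giving 13991 tested genes, and p-values were adjusted over all of them (Benjamini-Hochberg). A gene was called where the mean normalized count exceeded 50 and the adjusted p lay below 0.01, the limits the study used with DESeq2, and 0.05 was a second threshold. A standard error is the fold change divided by the square root of the F statistic. Libraries held 12559607 to 23331907 counts. Standard errors of members, which include the spread between mice, were 0.09 to 0.54 on the log2 scale in HF minus NP.

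Genes with full statistics were those called, then those under 0.05, then the smallest p up to 3 per comparison. 20 genes of the pathway were given with group means whatever their result, and other pathway genes were named if under 0.05 or, failing that, by the 2 smallest p, except for results that are not reported here. Samples were grouped by title. Alternatives were other scaling (relative log expression, no mitochondrially encoded genes), DESeq2 1.42.0, other filters, the library number in the labels as a covariate, a replicate block, the 2 groups alone and each mouse left out. After the data were seen, 2 alternatives were added that leave out libraries high in Ucp1 or Myl7. Within diets, all 40 pairs of libraries differed beyond counting noise (chi-square per degree of freedom from 13.4). Promoter windows came from RefSeq on GRCm38.p6. Each p-value sets a difference between diets against the spread between these mice, estimated with information shared over all genes.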

Additional observations from a re-analysis of the deposited data

Results flagged for a closer look

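In 24 genes and 4 diets, 2 of 96 groups of 5 mice held a value far from the others by Dixon's test, where chance gives about 1 in 20 groups. Idh3a in LP mouse 13 was 6785 normalized counts, with the other LP mice between 4212 and 4517. Pfkfb1 in HF + LP mouse 3 was 101, with the other HF + LP mice between 211 and 220. Both libraries had high Ucp1 and Myl7, and their part in these values was not tested.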

How the results depend on the processing

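Of 1256 values recomputed under alternatives for 42 results, 1146 kept their call, stayed within 1.5 times the reported count or, for medians of the 42 genes, moved by less than the spread between mice. That spread, an SD of 0.12 (log2) between single mice, was larger than several of the medians it judged. Staying within it therefore says little about those medians. A gene called in neither fit also counted as keeping its call. No fold change of a named gene among the 42 changed sign in 621 values, while that of Pck1, outside the 42, did (interaction). Medians near 0 did. In HF + LP minus LP the lowest was -0.01 (0.07 as reported), without LP mouse 20. For fat the highest was 0.02 (-0.03 as reported), with a single mouse left out, and without the 4 libraries high in Ucp1 the fat median was -0.06. For low protein the highest was 0.04 (-0.03 as reported), without those 4 libraries. In HF minus NP, the count of called members was 0 and became 2 with DESeq2 (Ogdh and Pfkfb1) and 1 without the 4 libraries high in Ucp1 (Ogdh). In HF + LP minus LP the count was 1 (Fbp2) and became 0 with the library number as covariate, with a replicate block, with only the 2 groups fitted, without the 4 libraries high in Ucp1 and without the 5 high in Ucp1 or Myl7. Leaving out single mice gave 0 to 1. For the mean effect of fat the count was 0 and became 1 with relative log expression size factors, 1 without mitochondrially encoded genes, 2 with DESeq2, 2 with at least 10 counts in every library and 1 without the 4 libraries high in Ucp1. Leaving out single mice gave 0 to 1. Over all genes, calls ran from 2 to 163 in HF minus NP (37 as reported), from 0 to 16 in HF + LP minus HF, from 0 to 84 in HF + LP minus LP (14), from 13 to 398 for fat (140) and from 0 to 4 in LP minus NP. Each highest count was from DESeq2. The cause of these differences was not tested.

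The mouse numbers do not pair mice across diets. Correlations of same-numbered mice ran from -0.55 to 0.49 in HF + LP and HF, and from -0.49 to 0.13 in HF and NP. With the replicate block the adjusted p of Fbp2 in HF + LP minus LP was 0.532 (log2 fold change 0.85), and 0 genes were called there. That of Ogdh was 0.0647 in HF minus NP and 0.0904 for fat, and that of Fbp2 for fat was 0.196. The interaction of Pfkfb1 was 1.92 with the block (1.04 as reported). With 5 mice per diet, standard errors of the members were 0.09 to 0.54 (log2) in HF minus NP. A difference within a gene's own standard error was not detectable, and larger ones could also fail to pass. In HF minus NP, Pfkfb2 at -0.58 (SE 0.21) and Got1 at -0.35 (SE 0.12) did not pass 0.05 (edgeR adjusted p = 0.221 and 0.153).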
